A study of Mus musculus with 24 samples.

Results

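The genes described here encode WNT ligands, their receptors and their secreted or intracellular regulators. They were chosen by name: every gene whose symbol is Wnt, Fzd, Sfrp, Dkk or Rspo followed by digits and an optional letter, and in addition Axin2, Dact1, Lgr4, Lgr5 and Wif1. This gave 46 of the 18193 genes on the array that a probe set could be assigned to, with 19 Wnt, 10 Fzd, 4 Sfrp, 4 Dkk and 4 Rspo genes and 5 others. The 46 genes had 87 probe sets in all, and the brightest of a gene's probe sets, by its mean over 24 arrays, stands for the gene.

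The arrays measured RNA from mouse lung. Tumour nodules that were visible by eye were dissected from mice carrying a pair of transgenes, written C/L858R (4 arrays), C/L+T (5 arrays, L858R+T790M) and C/T790M (5 arrays), on a doxycycline diet of 3 to 6 months. L858R is an activating change in the kinase domain of the epidermal growth factor receptor (EGFR), and T790M is a change in the same domain known from resistance to EGFR inhibitors. The normal lungs came from littermates with neither transgene or with 1 of them, which also received doxycycline. They formed 5 arrays labelled FVB mixed (mixed-strain normals) and 5 labelled FVB (FVB normals). FVB mixed is also the label of the L858R tumours, and FVB that of the rest, so each tumour group was compared with the normals of its own label. The labels do not spell out C, the promoter of the transgenes, the animal behind each array, its sex or a batch, and p-values then refer to the spread among the arrays only.

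WNT ligands are secreted lipid-modified proteins that bind Frizzled receptors and the co-receptors Lrp5 and Lrp6. In the canonical branch this stops the destruction complex of Axin, Apc and Gsk3 from degrading beta-catenin, which then acts with TCF/LEF factors on target genes; other branches act on cell polarity. R-spondins, through the Lgr receptors, keep Frizzled at the cell surface, while Sfrp and Wif1 proteins bind the ligands and Dkk proteins bind the co-receptors. In adult lung, WNT signals from mesenchymal cells are known to help keep alveolar type 2 cells in their state.

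The start regions of 6 of the genes are shown because these genes moved alike in the tumour groups. Axin2, Wnt2, Wnt11 and Rspo1 were lower and Dkk2 higher in each, and Fzd7 was called higher in L858R+T790M and T790M tumours. Axin2 is also a textbook target of TCF/LEF factors. Each line is the 250 bases before an annotated start, 5′ to 3′ on the gene's strand, from RefSeq on GRCm38.p6. The windows are chr11:108920099-108920348 on the plus strand (Axin2), chr6:18030446-18030695 on the minus strand (Wnt2), chr7:98834862-98835111 on the plus strand (Wnt11), chr4:124986180-124986429 on the plus strand (Rspo1), chr1:59481897-59482146 on the plus strand (Fzd7) and chr3:132085042-132085291 on the plus strand (Dkk2). Capitals mark the TCF/LEF word CTTTGAA or a form of it that ends in AT, TA or TT in place of AA. They also mark the AP-1 word TGACTCA or the form with G as its middle letter, and the TATA word TATAAA. All were searched on both strands.
Axin2: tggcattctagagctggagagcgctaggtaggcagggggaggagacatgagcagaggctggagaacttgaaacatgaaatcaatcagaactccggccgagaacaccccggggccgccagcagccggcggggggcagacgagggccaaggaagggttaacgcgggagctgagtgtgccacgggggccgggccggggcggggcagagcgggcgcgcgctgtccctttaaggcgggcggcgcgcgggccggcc
Wnt2: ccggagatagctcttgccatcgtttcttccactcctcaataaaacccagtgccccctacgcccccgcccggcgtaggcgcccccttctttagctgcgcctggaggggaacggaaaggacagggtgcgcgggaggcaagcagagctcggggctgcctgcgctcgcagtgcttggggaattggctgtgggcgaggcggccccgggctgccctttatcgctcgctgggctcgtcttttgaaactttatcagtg
Wnt11: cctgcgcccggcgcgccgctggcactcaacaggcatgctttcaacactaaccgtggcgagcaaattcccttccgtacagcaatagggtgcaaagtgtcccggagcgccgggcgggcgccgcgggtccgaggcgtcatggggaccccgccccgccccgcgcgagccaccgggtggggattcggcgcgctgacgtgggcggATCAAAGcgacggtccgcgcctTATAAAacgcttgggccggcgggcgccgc
Rspo1: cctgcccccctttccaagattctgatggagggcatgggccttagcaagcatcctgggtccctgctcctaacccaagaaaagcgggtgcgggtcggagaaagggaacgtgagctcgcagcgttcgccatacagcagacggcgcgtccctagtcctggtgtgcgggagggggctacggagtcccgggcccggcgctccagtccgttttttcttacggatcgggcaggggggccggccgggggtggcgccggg
Fzd7: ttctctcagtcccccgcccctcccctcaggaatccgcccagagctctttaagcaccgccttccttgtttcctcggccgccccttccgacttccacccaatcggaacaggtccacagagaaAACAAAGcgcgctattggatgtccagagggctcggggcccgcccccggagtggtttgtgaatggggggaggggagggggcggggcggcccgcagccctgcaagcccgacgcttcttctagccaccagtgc
Dkk2: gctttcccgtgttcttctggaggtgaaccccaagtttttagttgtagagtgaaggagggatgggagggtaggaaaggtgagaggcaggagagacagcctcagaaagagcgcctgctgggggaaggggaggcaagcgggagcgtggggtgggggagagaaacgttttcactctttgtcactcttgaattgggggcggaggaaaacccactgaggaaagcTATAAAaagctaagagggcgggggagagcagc

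In these letters Wnt11 holds ATCAAAG, a TCF/LEF word on the opposite strand, at position -51 and TATAAA at -29, where -1 is the last base before the start. A second annotated Wnt11 start, with the window chr7:98838595-98838844 on the plus strand, held none of the words. The Wnt11 window shown was chosen because it holds a TCF/LEF word. Fzd7 holds the TCF/LEF word AACAAAG, also on the opposite strand, at -130, and Dkk2 holds TATAAA at -32. None of the words stands in the Axin2, Wnt2 or Rspo1 window. Of the 46 genes 31 had an entry, with 34 windows, and 4 of these windows (11.8%) held a TCF/LEF word, against 4874 of all 32851 windows (14.8%). The AP-1 words were in 1 member window (2.94%) and 4.46% of all windows, and the TATA word in 5 (14.7%) and 12.4%. The median GC content was 68.6% in the member windows and 52.4% in all windows. A match is a run of letters, and binding was not measured.

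All values are log2 RMA values as deposited, and differences are log2 differences ± SE from a limma fit in which all groups share 1 estimate of the spread. A gene was called at a Benjamini-Hochberg adjusted p under 0.05 over all 18193 genes. Array medians lay between 7.21 and 7.34. Arrays within a group correlated at 0.988 or above in both sets of normals, at 0.975 or above in L858R tumours, and as low as 0.957 and 0.952 in L858R+T790M and T790M tumours. Alveolar type 2 markers, which define the tissue, had a mean of 13.15 or above in every array. The brightest Egfr probe set read 9.08 to 9.22 in L858R tumours, 9.03 to 9.16 in L858R+T790M tumours and 8.75 to 8.90 in T790M tumours, against 9.00 to 9.24 in mixed-strain and 9.00 to 9.20 in FVB normals; whether it detects the transgene was not tested. A gene is called dim below if its mean over all arrays is under 7.09, among the 6064 lowest genes; 20 members are, 12 of them Wnt genes.

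More members were lower than higher in each tumour group. In L858R tumours 17 of 46 (37.0%) were lower and 5 (10.9%) higher, where 18.1% and 23.3% of all genes were. In L858R+T790M tumours 14 (30.4%) were lower and 4 (8.70%) higher, with 16.1% and 20.2% of all genes. In T790M tumours 14 (30.4%) were lower and 5 (10.9%) higher, with 17.9% and 21.9% of all genes. The share called in either direction, 22, 18 and 19 of 46 (47.8%, 39.1% and 41.3%), lay close to the 41.4%, 36.2% and 39.8% of all genes. The median member differed by -0.06, -0.15 and -0.11 in L858R, L858R+T790M and T790M tumours, and the median gene by 0.05, 0.03 and 0.00. The tumour arrays lay wholly below the normals for 15, 13 and 8 members and wholly above for 4, 2 and 2, where 16.0%, 13.0% and 12.8% of all genes lay below and 19.8%, 16.7% and 17.0% above. With each array centred on its median the L858R split was 14 lower and 7 higher. The share of all genes under this scaling was not counted.

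Axin2, Dkk3, Lgr5, Rspo1, Rspo3, Wif1, Wnt11, Wnt2, Wnt3a and Wnt9a were lower in all 3 tumour groups, and Dkk2 and Fzd5 were higher in all 3. That is 21.7% and 4.35% of the members, where 11.2% and 12.8% of all genes were called lower or higher in all 3. The L858R+T790M and T790M comparisons share the FVB normals, so their values are given side by side and are not independent. No member was called in opposite directions in different tumour groups, as was true of all but 25 of the 18193 genes. In none of the 3 groups were 19 members (41.3%) called, close to the 43.4% of all genes. Of the 19, 11 are dim: Dkk1, Dkk4, Rspo2, Wnt10a, Wnt10b, Wnt16, Wnt3, Wnt6, Wnt8a, Wnt8b and Wnt9b. The others, which are not dim, are Fzd1, Fzd10, Fzd3, Fzd8, Lgr4, Sfrp4, Sfrp5 and Wnt5a. For 6 of the 19 (Lgr4, Rspo2, Wnt5a, Wnt6, Wnt8b and Wnt9b) a dimmer probe set was called in at least 1 tumour group. RNA came from whole nodules and whole lung pieces, and fewer cells of a type and less RNA per cell cannot be told apart in any result here.

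**Figure D1:**
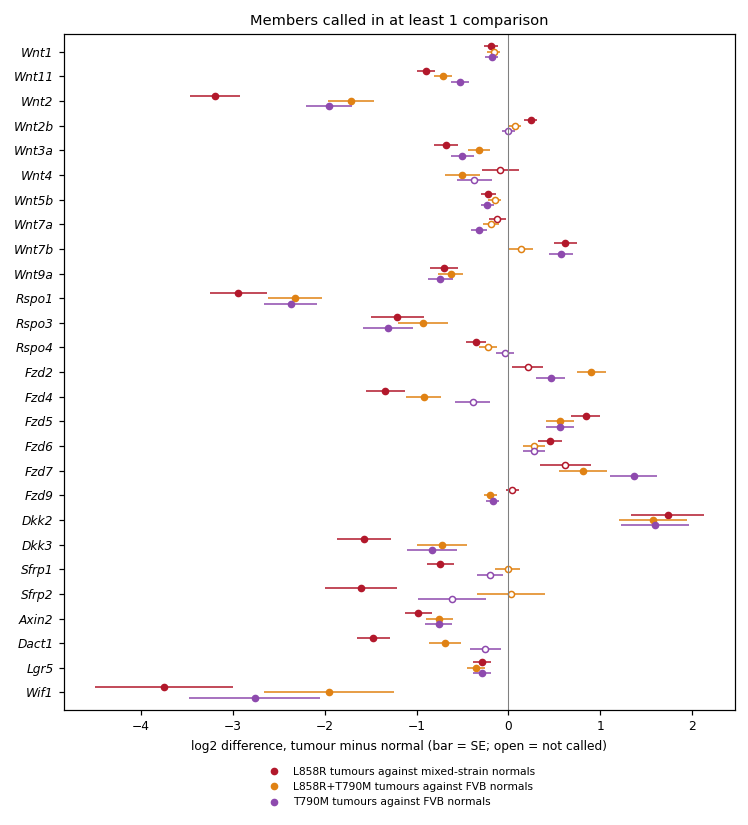
Log2 difference, tumour minus normal, on the x axis for each member called in at least 1 tumour group (y axis), with SE bars; colours are the 3 comparisons and open points were not called. Wif1, Wnt2 and Rspo1 lie farthest to the left, at -3.75, -3.19 and -2.94 in L858R tumours, and Dkk2 lies to the right at 1.73, 1.57 and 1.59.

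Among the ligands, 6 of 19 Wnt genes were lower in L858R tumours and 2 higher. In L858R+T790M tumours 5 were lower, and in T790M tumours 7 were lower and 1 higher. Of all genes 18.1%, 16.1% and 17.9% were lower and 23.3%, 20.2% and 21.9% higher in these groups. Wnt2, a ligand made by lung mesenchyme and needed with Wnt2b in the mouse embryo for the lung to form, changed most. Its arrays read 6.38, 6.29, 6.00 and 6.29 in L858R tumours, against 9.74, 9.09, 9.36, 8.95 and 10.00 in mixed-strain normals. They read 6.93, 6.51, 7.85, 6.61 and 7.25 in L858R+T790M tumours and 7.07, 6.42, 7.31, 6.73 and 6.44 in T790M tumours, against 8.63, 9.16, 9.07, 8.81 and 8.03 in FVB normals. Every tumour lay below every normal lung of its label. Wnt2 was 9.11-fold lower in L858R tumours (-3.19 ± 0.27, adjusted p = 1.73e-08), 3.27-fold lower in L858R+T790M tumours (-1.71 ± 0.25, adjusted p = 2.00e-05) and 3.85-fold lower in T790M tumours (-1.95 ± 0.25, adjusted p = 5.18e-06).

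Wnt11, a ligand best known from the polarity branch, fell by smaller amounts with little spread. Its means were 6.68 ± 0.08 in L858R tumours (SD, n = 4) and 7.58 ± 0.10 in mixed-strain normals (SD, n = 5). In the other strain they were 6.83 ± 0.14 in L858R+T790M and 7.01 ± 0.20 in T790M tumours, against 7.54 ± 0.17 in FVB normals (SD, n = 5 each). The groups did not overlap in any comparison, and the differences were -0.90 ± 0.10, -0.71 ± 0.10 and -0.53 ± 0.10 (adjusted p = 5.45e-07, 6.04e-06 and 0.000154). Wnt3a, the ligand most used to activate beta-catenin in culture, and Wnt9a, which is its neighbour on chromosome 11, were both lower in all 3 tumour groups. Wnt3a differed by -0.68 ± 0.13 in L858R, -0.32 ± 0.12 in L858R+T790M and -0.50 ± 0.12 in T790M tumours, and Wnt9a by -0.70 ± 0.15, -0.63 ± 0.14 and -0.74 ± 0.14. The Wnt3a call in L858R+T790M tumours was lost without any of 7 arrays (FVB normal replicates 1, 2 and 3 and L858R+T790M replicates 1, 2, 4 and 5; -0.33 to -0.25), and the dimmer of the Wnt9a probe sets was not called in any tumour group. That Wnt3a call was also lost with each array centred on its median, with quantile normalization or with only the compared groups fitted.

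Wnt7b, made by the lung epithelium of the mouse embryo, was higher in L858R (0.62 ± 0.13, adjusted p = 0.000743) and T790M tumours (0.57 ± 0.13, adjusted p = 0.00102). Its means were 9.43 ± 0.27 in L858R tumours (SD, n = 4), 9.05 ± 0.17 in L858R+T790M tumours and 9.48 ± 0.31 in T790M tumours, against 8.81 ± 0.07 in mixed-strain and 8.92 ± 0.10 in FVB normals (SD, n = 5 each). L858R+T790M tumours overlapped the FVB normals (0.14 ± 0.13, not called). Other ligands, by the probe sets that represent them, moved little: Wnt1 and Wnt5b were lower in L858R and T790M tumours (-0.23 to -0.18), Wnt2b was higher in L858R tumours (0.24), Wnt7a lower in T790M tumours (-0.32) and Wnt4 lower in L858R+T790M tumours (-0.50). The Wnt1 call in L858R tumours was lost when mixed-strain normal replicate 1, 2, 3 or 4 or L858R replicate 1 or 3 was left out (-0.21 to -0.14), and in T790M tumours without any array but FVB normal replicate 4 and T790M replicate 5 (-0.19 to -0.15). In each of these groups it was also lost with each array centred on its median, with quantile normalization or with only the compared groups fitted. The Wnt4 call was lost without any array but FVB normal replicate 3 and L858R+T790M replicate 4 (-0.53 to -0.42), that of Wnt2b without L858R replicate 3 (0.19), and that of Wnt5b in L858R tumours when mixed-strain normal replicate 5 or L858R replicate 1 or 3 was left out (-0.20). With the median over probe sets the Wnt4 call and the T790M calls of Wnt7a (adjusted p = 0.259 in limma) and Wnt5b were also lost. Quantile normalization removed the Wnt5b calls in L858R and T790M tumours, and centring each array on its median the one in L858R tumours. Wnt5a, the main ligand of the polarity branch, differed by -0.16, 0.54 and 0.47 in L858R, L858R+T790M and T790M tumours and was not called. The neighbours Wnt6 and Wnt10a on chromosome 1, and Wnt9b and Wnt3 on chromosome 11, were not called in any tumour group.

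Of the 4 R-spondins, 3 were lower in L858R tumours and 2 in each of the other tumour groups. Of all genes 18.1%, 16.1% and 17.9% were lower in L858R, L858R+T790M and T790M tumours. Rspo2, by the probe set that represents it, was not called (0.03, -0.03 and -0.07). Rspo1 read 5.83, 6.06, 6.10 and 5.81 in L858R tumours, against 8.84, 8.90, 8.70, 9.12 and 8.87 in mixed-strain normals. It read 6.02, 5.96, 7.52, 6.02 and 7.33 in L858R+T790M tumours and 7.02, 5.98, 7.14, 6.01 and 6.43 in T790M tumours, against 9.29, 9.05, 9.01, 8.14 and 8.94 in FVB normals. No tumour reached the lowest normal lung, and L858R+T790M replicates 3 and 5 were the highest of their group. The fall was 7.65-fold in L858R (-2.94 ± 0.31, adjusted p = 2.77e-07), 4.98-fold in L858R+T790M (-2.32 ± 0.29, adjusted p = 3.02e-06) and 5.17-fold in T790M tumours (-2.37 ± 0.29, adjusted p = 2.75e-06).

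Rspo3, known from vessels and mesenchyme, is a dim gene that fell with Rspo1. Its values were 4.97, 5.26, 5.19 and 5.15 in L858R tumours, against 5.81, 5.73, 6.50, 6.73 and 6.99 in mixed-strain normals. They were 5.49, 5.17, 5.55, 5.19 and 6.75 in L858R+T790M tumours and 5.83, 5.08, 4.91, 5.18 and 5.23 in T790M tumours, against 6.22, 6.27, 6.54, 6.72 and 7.04 in FVB normals. L858R+T790M replicate 5 alone lay within the range of its normals. The differences were -1.21 ± 0.29, -0.93 ± 0.27 and -1.31 ± 0.27 (adjusted p = 0.00174, 0.00958 and 0.000534), but a dimmer Rspo3 probe set was not called (-0.05, -0.04 and -0.10). Rspo4 was lower in L858R tumours (-0.35 ± 0.11) and not called in L858R+T790M (-0.22) or T790M tumours (-0.04). Of the R-spondin receptors, Lgr5 was lower in all 3 groups by small amounts (-0.29, -0.35 and -0.29, each ± 0.10), with a dimmer probe set near 0 (0.01, -0.02 and 0.03), and Lgr4 was not called. The Lgr5 call was lost in L858R tumours when mixed-strain normal replicate 1, 2 or 5 or L858R replicate 1 or 3 was left out (-0.27 to -0.23), and in T790M tumours without FVB normal replicate 4 or T790M replicate 5 (-0.24 each). In each of these groups it was also lost with quantile normalization or the median over probe sets. The L858R call was lost as well with each array centred on its median or with only the compared groups fitted.

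Frizzled receptors went both ways. In L858R tumours 2 of 10 were higher and 1 lower, in L858R+T790M tumours 3 and 2, and in T790M tumours 3 and 1. Of all genes 23.3%, 20.2% and 21.9% were higher and 18.1%, 16.1% and 17.9% lower in these groups. Fzd4, known in mice as the Norrin receptor of blood vessels, read 8.99, 8.84, 8.96 and 8.92 in L858R tumours, against 10.43, 10.37, 10.06, 10.35 and 10.11 in mixed-strain normals. It read 8.83, 9.41, 9.50, 9.30 and 9.14 in L858R+T790M tumours and 9.57, 10.17, 9.35, 10.58 and 9.13 in T790M tumours, against 9.91, 10.13, 10.19, 10.36 and 10.17 in FVB normals. All L858R and L858R+T790M tumours lay below their normals, while T790M replicates 2 and 4 lay within or above theirs. Fzd4 fell in L858R (-1.34 ± 0.21, adjusted p = 2.13e-05) and L858R+T790M tumours (-0.92 ± 0.19, adjusted p = 0.000713), and the T790M difference was not called (-0.39 ± 0.19, adjusted p = 0.114).

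Fzd7, a receptor studied in stem and tumour cells, was called higher in L858R+T790M and T790M tumours. Its arrays read 10.09, 10.67, 10.20, 10.56 and 9.73 in L858R+T790M tumours and 10.03, 11.50, 10.78, 11.65 and 10.06 in T790M tumours, against 9.63, 9.45, 9.42, 9.50 and 9.20 in FVB normals. L858R tumours read 10.68, 9.85, 10.72 and 9.99, against 9.82, 9.79, 9.53, 9.70 and 9.63 in mixed-strain normals. Every tumour lay above its normals, L858R replicate 2 only just, and T790M replicates 2 and 4 were the highest. The T790M difference was 1.36 ± 0.26 (2.57-fold, adjusted p = 0.000293) and the L858R+T790M difference 0.81 ± 0.26 (adjusted p = 0.0193). L858R tumours differed by 0.62 ± 0.28, which was not called (adjusted p = 0.0829). After subtracting the matching normals, L858R tumours were not called different from L858R+T790M tumours in limma (-0.19 ± 0.38, adjusted p = 0.924). The same held against T790M tumours (-0.75 ± 0.38, adjusted p = 0.373), so no difference between the genotypes was shown for Fzd7. Without L858R+T790M replicate 2 or 4 the call in that group was lost (0.71 to 0.73, adjusted p = 0.0521 to 0.0558).

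Fzd5, a receptor known from epithelia, was higher in all 3 tumour groups (0.84 ± 0.16 in L858R, 0.56 ± 0.15 in L858R+T790M and 0.56 ± 0.15 in T790M tumours). Its dimmer probe set was called in L858R tumours (0.31) and not in L858R+T790M (0.24) or T790M tumours (0.04), and with the median over both the T790M call was lost (0.30, adjusted p = 0.0509). Fzd2, which binds Wnt5a among others, averaged 9.38 ± 0.24 in L858R+T790M and 8.94 ± 0.43 in T790M tumours, against 8.48 ± 0.24 in FVB normals (SD, n = 5 each). It was higher in L858R+T790M tumours by 0.90 ± 0.16 with no overlap (adjusted p = 0.000136), and by 0.46 ± 0.16 in those with T790M alone (adjusted p = 0.0268), where the call was lost without FVB normal replicate 4 or 5 or T790M replicate 2 or 4 (0.30 to 0.41). Fzd6 rose in L858R tumours (0.45 ± 0.13), and a dimmer Fzd6 probe set was also called in L858R+T790M (0.48) and T790M tumours (0.54). Fzd9 differed by -0.20 and -0.17 in L858R+T790M and T790M tumours, calls that were lost without FVB normal replicate 1 or 4 or L858R+T790M replicate 4 or 5 (-0.18 to -0.16), and without any array but FVB normal replicate 2 and T790M replicate 4 (-0.18 to -0.13).

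Wif1 and the Sfrp members, antagonists that bind ligands, were lower or not called. Wif1, WNT inhibitory factor 1, read 6.29, 3.67, 6.92 and 5.04 in L858R tumours, against 9.68, 9.49, 8.83, 8.53 and 9.63 in mixed-strain normals. It read 7.76, 5.77, 6.88, 7.20 and 7.61 in L858R+T790M tumours and 7.70, 4.98, 6.05, 3.79 and 8.66 in T790M tumours, against 8.48, 8.18, 9.06, 9.37 and 9.90 in FVB normals. L858R and T790M tumours spread more (SD 1.44 and 1.98) than L858R+T790M tumours (0.79), mixed-strain normals (0.52) and FVB normals (0.69), and T790M replicate 5 alone overlapped its normals. Wif1 was 13.5-fold lower in L858R tumours (-3.75 ± 0.75, adjusted p = 0.000372), 6.78-fold lower in T790M tumours (-2.76 ± 0.71, adjusted p = 0.00355) and 3.87-fold lower in L858R+T790M tumours (-1.95 ± 0.71, adjusted p = 0.0350). The L858R+T790M call was lost without FVB normal replicate 3, 4 or 5 or L858R+T790M replicate 2, 3 or 4 (-1.99 to -1.64, adjusted p = 0.0531 to 0.0974).

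Sfrp2, a dim gene of the secreted Frizzled-related family, read 5.59, 5.87, 5.86 and 5.79 in L858R tumours, against 7.23, 7.99, 7.86, 6.96 and 6.83 in mixed-strain normals. It read 6.02, 5.36, 6.10, 5.48 and 8.31 in L858R+T790M tumours and 5.55, 5.43, 6.11, 5.76 and 5.23 in T790M tumours, against 6.52, 6.09, 6.29, 6.02 and 6.22 in FVB normals. It fell in L858R tumours with no overlap (-1.60 ± 0.39, adjusted p = 0.00245) and was not called in L858R+T790M (0.03 ± 0.37) or T790M tumours (-0.61 ± 0.37). The mixed-strain normals themselves lay above all FVB normals. Sfrp1 was lower in L858R tumours (-0.74 ± 0.15), and its 5 probe sets, from bright to dim, gave -0.74, -0.63, -0.28, -1.22 and -1.63, of which the -0.28 was not called. With the median over its probe sets the call of Sfrp1 was lost (-0.49, adjusted p = 0.0597).

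Dickkopf genes moved in both directions. Dkk2, which binds Lrp6 and can act as antagonist or weak agonist, is dim and rose. Its arrays read 5.70, 7.06, 7.45 and 7.20 in L858R tumours, against 4.80, 4.98, 4.95, 5.80 and 5.10 in mixed-strain normals. They read 7.93, 6.85, 7.01, 7.54 and 6.66 in L858R+T790M tumours and 6.47, 6.62, 7.20, 7.33 and 8.46 in T790M tumours, against 6.70, 5.45, 5.13, 5.33 and 5.51 in FVB normals. L858R replicate 1 lay among its normals, and FVB normal replicate 1 lay within the range of the tumours. Dkk2 was 3.31-fold higher in L858R (1.73 ± 0.40, adjusted p = 0.00133), 2.98-fold in L858R+T790M (1.57 ± 0.37, adjusted p = 0.00207) and 3.01-fold in T790M tumours (1.59 ± 0.37, adjusted p = 0.00174).

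Dkk3, the divergent member of the family, read 8.85, 7.98, 8.30 and 7.97 in L858R tumours, against 9.65, 9.97, 9.97, 9.67 and 9.94 in mixed-strain normals. It read 8.51, 7.86, 8.71, 7.90 and 9.54 in L858R+T790M tumours and 9.00, 7.93, 8.66, 7.90 and 8.44 in T790M tumours, against 8.97, 9.24, 9.54, 9.60 and 8.75 in FVB normals. L858R+T790M replicate 5 and T790M replicate 1 lay within the range of the FVB normals, and the L858R tumours did not overlap theirs. Dkk3 was lower in each group, by log2 differences of -1.57 ± 0.29, -0.72 ± 0.27 and -0.83 ± 0.27 in L858R, L858R+T790M and T790M tumours (adjusted p = 0.000161, 0.0440 and 0.0180). The L858R+T790M call was lost without FVB normal replicate 2, 3 or 4 or L858R+T790M replicate 1, 2 or 4 (-0.72 to -0.55), and the T790M call without FVB normal replicate 4 or T790M replicate 2 or 4 (-0.74 to -0.71). With the median over probe sets, or with only the compared groups fitted, the L858R+T790M call was also lost.

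Inside the cell, Axin2, a scaffold of the destruction complex whose gene is itself induced by beta-catenin, was lower in every tumour group. It read 9.04, 8.20, 8.55 and 8.63 in L858R tumours, against 9.61, 9.90, 9.45, 9.49 and 9.46 in mixed-strain normals. It read 8.57, 8.43, 8.83, 8.47 and 8.88 in L858R+T790M tumours and 8.95, 8.55, 8.75, 8.32 and 8.58 in T790M tumours, against 9.25, 9.36, 9.54, 9.65 and 9.13 in FVB normals. No tumour overlapped the normals of its label. The differences were -0.98, -0.75 and -0.76 in L858R, L858R+T790M and T790M tumours, each ± 0.15, or 1.97-fold, 1.68-fold and 1.69-fold lower (adjusted p = 3.00e-05, 0.000331 and 0.000288).

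Dact1, which binds Dishevelled, read 8.09, 7.42, 8.01 and 7.91 in L858R tumours, against 9.44, 9.21, 9.23, 9.47 and 9.31 in mixed-strain normals. It read 7.97, 8.14, 8.29, 7.96 and 8.32 in L858R+T790M tumours and 8.78, 8.02, 8.50, 9.28 and 8.34 in T790M tumours, against 8.61, 8.74, 9.08, 9.05 and 8.67 in FVB normals. L858R and L858R+T790M tumours lay below their normals, and T790M replicates 1 and 4 lay within or above theirs. Dact1 fell in L858R (-1.47 ± 0.18, adjusted p = 1.85e-06) and L858R+T790M tumours (-0.69 ± 0.17, adjusted p = 0.00307), and differed by -0.25 ± 0.17 in T790M tumours, not called.

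**Figure D2:**
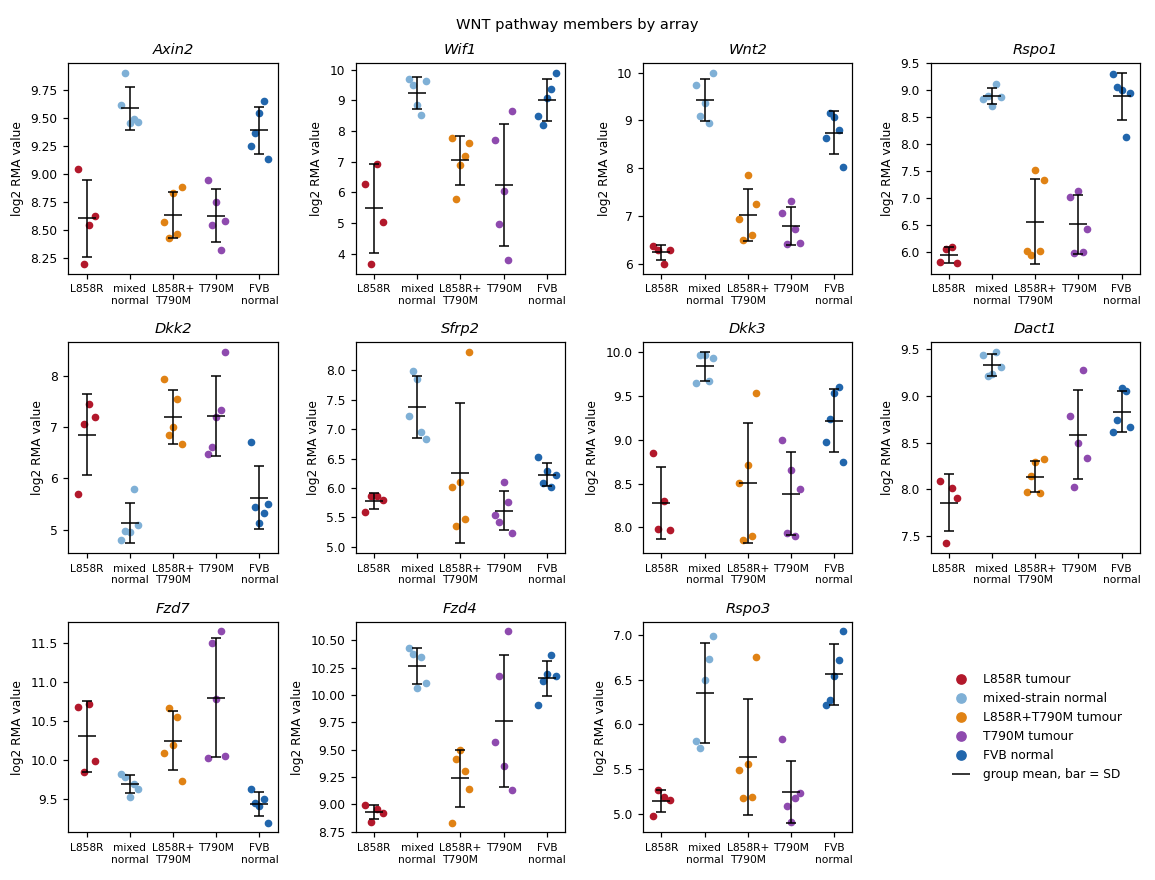
Log2 RMA value (y axis) of every array for the 11 members whose arrays are given singly, by group (x axis); horizontal marks are group means and bars are SD. Rspo1, Wnt2 and Axin2 separate all tumours from their normals, and L858R+T790M replicate 5 stands apart for Sfrp2 at 8.31 and Rspo3 at 6.75.

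Other genes of the pathway were counted from 4 lists. Beside these counts, 23.3%, 20.2% and 21.9% of all genes were higher in L858R, L858R+T790M and T790M tumours, and 18.1%, 16.1% and 17.9% lower. Of 17 measured genes for secretion and surface co-receptors, 4 were higher and 3 lower in L858R, 4 and 4 in L858R+T790M, and 4 and 3 in T790M tumours. Wls, which carries WNT ligands to the cell surface, was higher by 0.75 ± 0.10, 0.80 ± 0.09 and 0.82 ± 0.09 in that order, and Ror1, a receptor of the polarity branch, by 0.80 ± 0.32, 0.87 ± 0.30 and 1.32 ± 0.30. Lrp4 fell in all 3 (-1.03 ± 0.18, -1.30 ± 0.17 and -0.63 ± 0.17), and the glypican gene Gpc3 fell in L858R tumours (-1.71 ± 0.44). Of 10 other inhibitors, 6 were lower in L858R, 3 in L858R+T790M and 4 in T790M tumours, and 1 was higher, Frzb in T790M tumours (1.22 ± 0.45), with means of 7.56 ± 1.63 in T790M tumours and 6.34 ± 0.19 in FVB normals (SD, n = 5 each). Igfbp4, which also binds insulin-like growth factors, was lower in L858R (-1.46 ± 0.21) and L858R+T790M tumours (-1.26 ± 0.20). Notum, a WNT deacylase that beta-catenin induces, was lower in all 3 (-0.51 ± 0.13, -0.53 ± 0.12 and -0.57 ± 0.12).

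The beta-catenin cascade list, with 33 measured genes, had 4 higher and 5 lower in L858R, 5 and 5 in L858R+T790M, and 6 and 7 in T790M tumours, and its medians were 0.02, 0.08 and -0.02. Ctnnb1, the gene of beta-catenin itself, differed by 0.12 ± 0.06, 0.00 ± 0.06 and -0.10 ± 0.06 and was not called. Lef1 was lower in all 3 (-0.78, -0.70 and -0.68, each ± 0.10) and Tcf7l2 higher by 0.79 ± 0.18, 0.54 ± 0.17 and 0.57 ± 0.17, so these related factors differed in direction. The co-repressor gene Tle4 was lower (-1.02 ± 0.21, -1.15 ± 0.20 and -0.87 ± 0.20), and Nkd1, a feedback inhibitor, was lower in T790M tumours (-1.36 ± 0.34).

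Of 25 measured target and planar polarity genes, 8 were higher and 10 lower in L858R tumours, and 10 higher and 10 lower in each of the other tumour groups. Genes listed as targets went both ways. Myc rose by 1.15 ± 0.14, 1.13 ± 0.13 and 1.13 ± 0.13 in L858R, L858R+T790M and T790M tumours, Sp5 by 1.92 ± 0.46, 1.69 ± 0.44 and 1.22 ± 0.44, and Rnf43, a ligase that removes Frizzled, by 0.73 ± 0.16, 0.77 ± 0.15 and 0.82 ± 0.15. Tnfrsf19, a receptor of the TNF family, fell in the same order (-3.67 ± 0.40, -2.58 ± 0.38 and -2.49 ± 0.38). In the polarity branch, Celsr1 rose by 1.70 ± 0.19, 1.70 ± 0.18 and 1.61 ± 0.18, while Prickle1 (-3.56 ± 0.49, -2.82 ± 0.46 and -2.64 ± 0.46), Prickle2 (-2.40 ± 0.41, -2.56 ± 0.39 and -2.58 ± 0.39) and Fat4 (-2.15 ± 0.29, -1.54 ± 0.27 and -1.43 ± 0.27) fell. Lef1, Nkd1, Notum, Rnf43, Tcf7 and Znrf3 stand in 2 of the 4 lists.

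**Figure D3:**
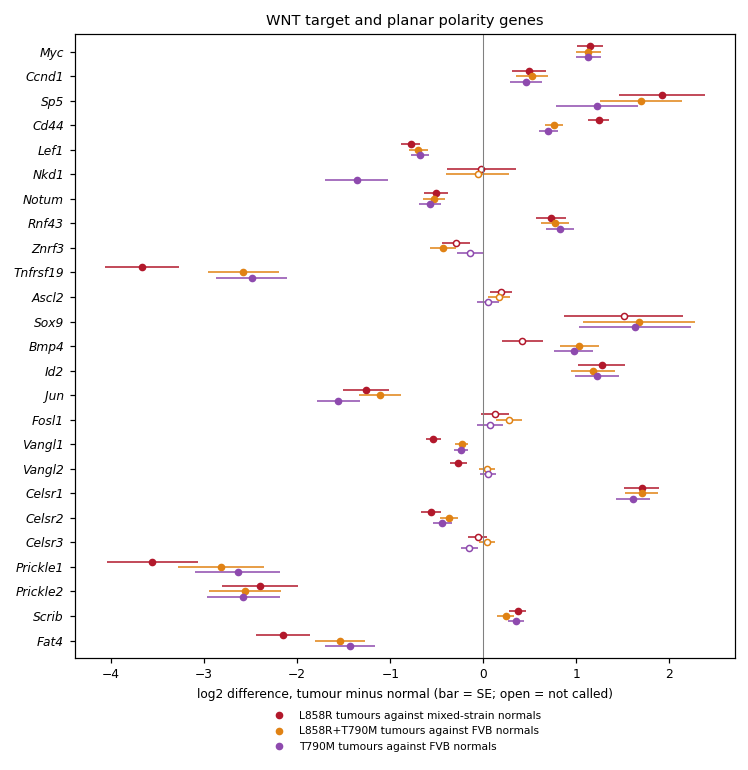
Log2 difference, tumour minus normal (x axis, SE bars), for the 25 measured genes of the target and planar polarity list (y axis) in the 3 tumour groups; open points were not called. Sp5, Myc and Celsr1 lie to the right and Tnfrsf19, Prickle1 and Prickle2 to the left in all 3 groups.

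Markers of most cell types also differed between tumours and normal lungs. Fibroblast markers were lower in 9 of 10 genes in L858R and 7 of 10 in each of the other tumour groups, and their mean level ranged over 8.50 to 10.26 in L858R tumours against 11.96 to 12.03 in mixed-strain normals. It was 8.61 to 10.43 in L858R+T790M and 8.39 to 10.51 in T790M tumours, against 11.03 to 11.67 in FVB normals. All 9 endothelial markers were lower in each tumour group, with a mean level of 8.80 to 9.96 in L858R tumours against 11.63 to 11.81 in mixed-strain normals, and of 8.16 to 10.30 in L858R+T790M and 8.03 to 10.70 in T790M tumours against 11.34 to 11.87 in FVB normals. Smooth muscle and pericyte markers were lower in 8, 7 and 6 of 8 genes, mesothelial markers in 4, 2 and 4 of 5 (1 higher in L858R+T790M tumours) and lymphocyte markers in 4, 5 and 5 of 6. The lowest mean of any list in any array was 6.05, for ciliated markers.

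Epithelial lists differed among themselves. Alveolar type 2 markers were higher in 6, 6 and 5 of 7 genes in L858R, L858R+T790M and T790M tumours, alveolar type 1 markers lower in 6, 5 and 7 of 7, club cell markers lower in 5, 4 and 4 of 5 and ciliated markers lower in all 6 of each. Macrophage markers were higher in 5 of 6 genes in L858R and 1 in L858R+T790M tumours, and in T790M tumours limma called 0, with 1 higher at an unadjusted p under 0.05. The falls of Wnt2, Rspo1, Rspo3, Wif1, Dkk3, Fzd4 and Axin2 stand beside those of the mesenchymal, endothelial, alveolar type 1, club and ciliated lists. Fzd4 was not called in T790M tumours. In replicate order, the endothelial means of that group were 10.70, 8.74, 9.69, 8.03 and 9.58, and Fzd4 read 9.57, 10.17, 9.35, 10.58 and 9.13. The part of these lists in the results was not tested. The difference between the 3-prime and 5-prime Gapdh probe sets, a measure of RNA integrity, ranged over -0.24 to -0.07 in L858R tumours against -0.31 to -0.22 in mixed-strain normals, and over -0.19 to -0.03 in L858R+T790M and -0.26 to -0.11 in T790M tumours against -0.20 to -0.08 in FVB normals.

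**Figure D4:**
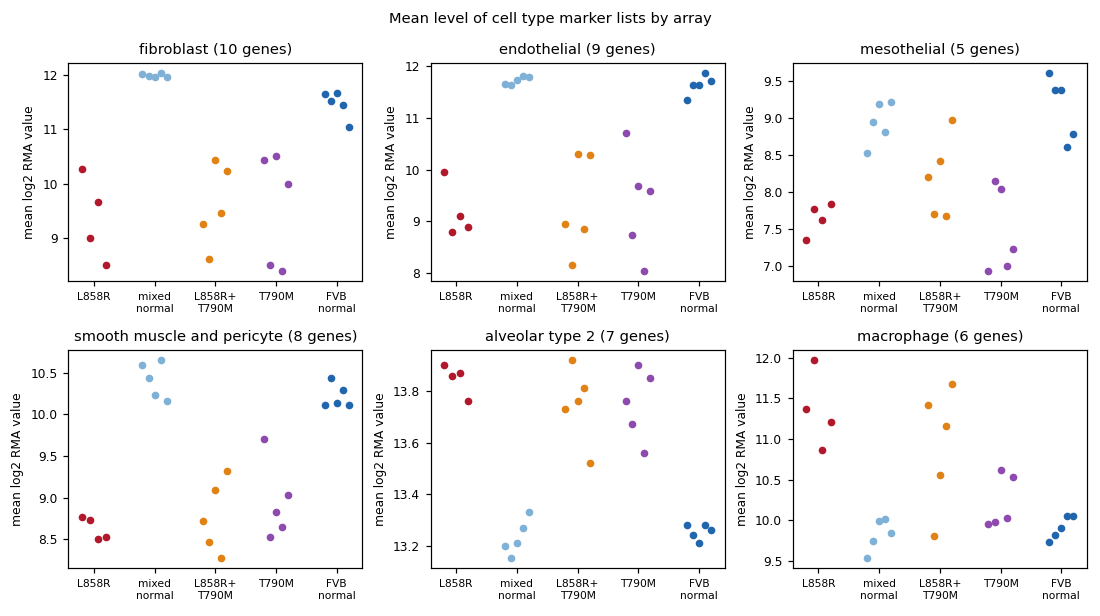
Mean log2 RMA value (y axis) of 6 cell type marker lists in every array, by group (x axis). Fibroblast and endothelial means are lower in every tumour than in every normal lung of its label, and alveolar type 2 means are higher.

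Between tumour genotypes few members differed. L858R+T790M and T790M tumours share 1 strain label but carry different transgenes, so the L858R change and other transgene differences cannot be told apart. In L858R+T790M against T790M tumours limma called 0 of 46 members, where 1.59% of all genes were called. An unadjusted p under 0.05 was found for 6 members (13.0%), as for 17.1% of all genes. These were Wnt7b (-0.43, 95% interval -0.69 to -0.17, adjusted p = 0.0858), Lgr4 (-0.51, -0.85 to -0.18), Fzd2 (0.44, 0.11 to 0.77), Fzd4 (-0.52, -0.93 to -0.12), Dact1 (-0.45, -0.81 to -0.09) and Fzd7 (-0.55, -1.10 to -0.01). Intervals ranged in width up to that of Wif1, -0.66 to 2.28. Wnt7b was called without L858R+T790M replicate 2 (-0.49, adjusted p = 0.0498) or T790M replicate 1 (-0.52) or 2 (-0.49), Lgr4 without T790M replicate 2 (-0.65, adjusted p = 0.0208) and Fzd2 without T790M replicate 4 (0.60, adjusted p = 0.0384).

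A second probe set of Wnt7a and of Wnt7b, each dimmer than the one that represents the gene, differed between these tumours, in opposite directions; they were singled out after their values were seen. The Wnt7a one read 8.96, 7.89, 8.11, 8.68 and 8.88 in L858R+T790M tumours, against 7.05, 7.78, 7.21, 6.56 and 7.19 in T790M tumours, with no overlap (1.35 ± 0.25, adjusted p = 0.00950 over all probe sets with 1 gene). Against FVB normals it was higher in L858R+T790M tumours (1.04 ± 0.25, adjusted p = 0.00249) and not called in T790M tumours (-0.31 ± 0.25). The other 2 Wnt7a probe sets gave 0.13 and -0.10 between these tumours, not called. The Wnt7b one read 6.56, 7.04, 6.50, 6.99 and 6.47 in L858R+T790M tumours, against 7.17, 7.26, 7.68, 7.91 and 7.32 in T790M tumours, again with no overlap (-0.76 ± 0.14, adjusted p = 0.00862). Both calls held without any 1 array of these groups (1.20 to 1.50 for Wnt7a, -0.84 to -0.65 for Wnt7b). Of the inhibitor and co-receptor lists, Igfbp4 (-0.90 ± 0.20, adjusted p = 0.0238) and Lrp4 (-0.67 ± 0.17, adjusted p = 0.0444) were lower in L858R+T790M than in T790M tumours. The Lrp4 call was lost without any of 8 arrays, all but L858R+T790M replicate 3 and T790M replicate 2 (-0.70 to -0.59, adjusted p = 0.0513 to 0.122).

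L858R tumours carry another strain label, so they were compared with the other tumours after subtracting the matching normals from each. Against L858R+T790M tumours 0 members were called in limma (0.0715% of all genes were; 9 members, 19.6%, and 9.54% of all genes had an unadjusted p under 0.05). Wnt2 differed by -1.48 (95% interval -2.25 to -0.71, adjusted p = 0.128) and Sfrp2 by -1.62 (-2.75 to -0.50, adjusted p = 0.294). Against T790M tumours 1 member was called, Dact1, which was lower, where 0.418% of all genes were called and 0.214% were lower. Its strain-adjusted difference was -1.23 ± 0.25 (adjusted p = 0.0273), that is a lower value relative to normal lung in L858R than in T790M tumours, and the direct difference between the tumours was -0.73 (adjusted p = 0.0248). The call was lost without FVB normal replicate 1, 2 or 5, L858R replicate 2 or 4, mixed-strain normal replicate 1 or 4 or T790M replicate 1 (-1.25 to -1.08, adjusted p = 0.0514 to 0.0686).

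Between the sets of normal lungs limma called 2 members (4.35%), where 1.04% of all genes were called. An unadjusted p under 0.05 was found for 15 members (32.6%) and for 15.3% of all genes. Wnt3a averaged 8.18 ± 0.25 in mixed-strain normals and 7.66 ± 0.27 in FVB normals (SD, n = 5 each), a difference of 0.52 ± 0.12 (adjusted p = 0.0392), and Wnt2b differed by -0.33 ± 0.07 (adjusted p = 0.0268). The Wnt3a call was lost without any array but FVB normal replicates 1 and 3 and mixed-strain normal replicate 3 (0.45 to 0.55), and the Wnt2b call without any array but FVB normal replicate 3 and mixed-strain normal replicates 2 and 3 (-0.35 to -0.31). Sfrp2 (1.15 ± 0.37, adjusted p = 0.131) and Fzd2 (0.62 ± 0.16, adjusted p = 0.0577) did not overlap between the sets and were not called; the 2 sets did not overlap for 8 members (17.4%) and for 10.4% of all genes. With all 10 normal lungs as 1 group, 6 calls were lost: Wnt2b in L858R tumours (0.07), Fzd9 in L858R+T790M tumours (-0.12), and Fzd2 (0.14), Fzd9 (-0.09), Lgr5 (-0.21) and Wnt1 (-0.14) in T790M tumours.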

How the data were processed

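Gene expression was measured with Affymetrix mouse arrays, 1 per sample, in 24 mouse lung samples. The authors deposited 1 log2 value per probe set and array, computed by RMA per the submitters' processing notes. The sources used here give neither its version nor its settings, and the values were used as deposited. Detection calls were not used here, arrays hold no counts, and their number per group, 4 or 5, limits the precision.

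Of 45101 probe sets 34945 had 1 gene in the platform annotation, 932 several and 9160 none, and 64 were controls. Symbols were updated by Entrez identifier for 34741, and 204 kept the older symbol. Each of 18193 genes took its probe set with the highest mean. A limma model (version 3.58.1, R 4.3.3) with 5 group means was fitted to all arrays, with 19 residual degrees of freedom and a trend in eBayes, two-sided, with Benjamini-Hochberg adjustment over all genes, and the fit was tested on simulated data. Gene order came from the RefSeq table of GRCm38.

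Values of every array are given for Axin2 and for members called with a log2 difference of at least 1 in size in a tumour group; pathway genes were named by the same size, at most 8 per list, with Wls, Lef1, Notum, Rnf43, Ctnnb1, Tcf7l2 and the second probe sets added after their values were seen. The members, lists and rules were chosen with earlier results of these data known. Alternatives were other scalings, probe set rules, filters, array weights, no trend, smaller fits, all normals as 1 group, a replicate block, stricter calls and leaving out each array; for Igfbp4, Lrp4 and the second probe sets this was added after the data were seen.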

Additional observations from a re-analysis of the deposited data

Results flagged for a closer look

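For each of the 11 members whose arrays are given singly, the highest and lowest array of each group was compared with the rest of the group by Dixon's ratio, 55 sets in all, of which chance gives about 1 in 20. Dkk2 in FVB normal replicate 1 was 6.70, with the next FVB normal at 5.51. Sfrp2 in L858R+T790M replicate 5 was 8.31, with the next tumour of the group at 6.10. Rspo3 in the same array was 6.75, with the next at 5.55. That array had the highest mesothelial mean of its group, 8.98, and a fibroblast mean of 10.23, where the other L858R+T790M tumours had 8.61 to 10.43; their part in these values was not tested. For Dact1 the strain-adjusted difference of L858R against T790M tumours was -1.23 in limma. Every L858R tumour lay below every mixed-strain normal, and T790M tumours overlapped the FVB normals. The mixed-strain normals themselves lay above all FVB normals for Dact1 (0.50 ± 0.17, not called). The call at -1.23 was lost when any 1 of 8 arrays was left out (-1.25 to -1.08). Genotype and strain label cannot be told apart in this difference.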

How the results depend on the processing

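Of 62 calls of a member in a comparison, 40 held, at the same threshold, under every other scaling, probe set median, filter, fit and left-out array that included the gene, 22 were lost under at least 1 and 0 reversed. Some calls for which left-out arrays are named above were also lost under other scalings or fits. Among them are Fzd9 in L858R+T790M and T790M tumours and Fzd2 in T790M tumours. Stricter thresholds were counted apart. The share of all genes called was counted only in the main fit, at an adjusted p under 0.05. Member counts under other settings are therefore not set beside all genes. They show how the number of calls moved, not a trait of the members. Members called numbered 22 in L858R, 18 in L858R+T790M and 19 in T790M tumours; without 1 array they were 19 to 24, 13 to 18 and 15 to 19. Without the 6064 dimmest genes, which leaves 26 members, L858R tumours had 14. At an adjusted p under 0.01 the counts were 17, 12 and 13, and with a change of at least 2-fold 9, 4 and 6. Between L858R+T790M and T790M tumours the 0 calls became 2 with the median over probe sets, 4 with array weights, 2 over every probe set and 0 to 2 without 1 array. For L858R against T790M tumours the 1 call became 2 with the direct difference, 2 over every probe set, 0 at an adjusted p under 0.01 and 0 to 1 without 1 array, and L858R against L858R+T790M tumours had 0 throughout these. Between the normal sets the 2 calls became 1 with quantile normalization, 1 without the dimmest genes, 14 with array weights, 10 with only these groups fitted, 5 over every probe set, 0 at an adjusted p under 0.01, 0 at 2-fold and 0 to 2 without 1 array. The cause of these changes was not tested, beyond the fewer genes or arrays some settings hold. With the replicate block the counts were 21, 18 and 18 in the tumour groups and 1 between the normal sets. Deviations of same-numbered arrays correlated at -0.28 to 0.44, so the numbers were not taken as pairs. Dim members, 20 of 46, may lie near background, where differences are compressed.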
